A study of Sus scrofa with 16 samples.

Results

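CCNB1, AURKB, TOPOII, CKS1B and CCND2 are 5 genes of the cell division machinery among the 3875 genes counted in porcine satellite cells (SCs), the stem cells of skeletal muscle. They were picked by name, with earlier results of these data known, and their rows were read from the raw count table. The SCs came from the INT (intercostal) muscle of 4 WT and 4 DMD male piglets aged 3 days, were purified by magnetic sorting that removed CD31 and CD45 positive cells and selected for SC surface proteins, and were grown to passage 6. The DMD piglets carry a deletion in the dystrophin gene in the germ line, so every cell of these animals, not muscle alone, lacks the intact gene. Each animal gave 1 proliferating culture (PROL, 20% fetal bovine serum with basic fibroblast growth factor) and 1 differentiating culture (DIFF, 5% horse serum), which makes 4 groups of 4 libraries, namely WT PROL, WT DIFF, DMD PROL and DMD DIFF.

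Cells divide by stepwise activation of cyclin-dependent kinases (CDKs), each switched on by a cyclin that is made and destroyed in turn. D-type cyclins start the cycle in response to growth signals, A- and B-type cyclins drive DNA replication and entry into mitosis, and the aurora kinases and topoisomerase II then handle the condensed chromosomes. Proliferating myoblasts run this cycle, and they leave it for good before they fuse into myotubes.

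CCNB1 encodes cyclin B1, the partner of CDK1 at entry into mitosis. AURKB encodes aurora kinase B, the enzyme of the chromosome passenger complex that corrects spindle attachment and serves cell cleavage. TOPOII is an older name of TOP2A (RefSeq gene 396917, matched through its synonym in the Sscrofa11.1 gene table), the topoisomerase that untangles replicated DNA strands. CKS1B encodes a small subunit that binds CDKs and helps the ubiquitin ligase SKP2 mark the inhibitor p27 for destruction. CCND2 encodes cyclin D2, a G1 cyclin that works with CDK4 and CDK6. The other 4 genes were matched by their symbols.

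The 16 libraries held between 1110050 and 1781174 counts after the technical duplicates of each sample had been added. Every deposited value was an even number, and the cause was not tested. RN18S, a ribosomal RNA, took 20.4% of the counts of DMD PROL replicate 4 against 6.32% to 11.7% in the other 15 libraries, and the excess lay in the first of its duplicates. Levels are given as CPM, the share of a gene in the library total brought to a common scale, after trimmed mean of M values (TMM) scaling over the 16 libraries. With 3′ libraries 1 fragment stands for 1 transcript end, and levels are compared here within a gene only.

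In WT SCs the 3 mitotic genes CCNB1, AURKB and TOPOII were lower in DIFF than in PROL, by 13.7-fold, 9.43-fold and 8.05-fold. In DMD SCs the same 3 genes were lower by 9.49-fold, 12.7-fold and 9.99-fold, and CKS1B was lower as well, by 2.69-fold. CCND2, the G1 cyclin, was not lower in DMD DIFF, where it was 1.79-fold higher than in WT DIFF. In bulk cultures fewer dividing cells and less RNA per dividing cell cannot be told apart. The cultures also differed in medium, serum, growth factor and time in culture between PROL and DIFF, and these cannot be told apart from the state itself.

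**Figure D1:**
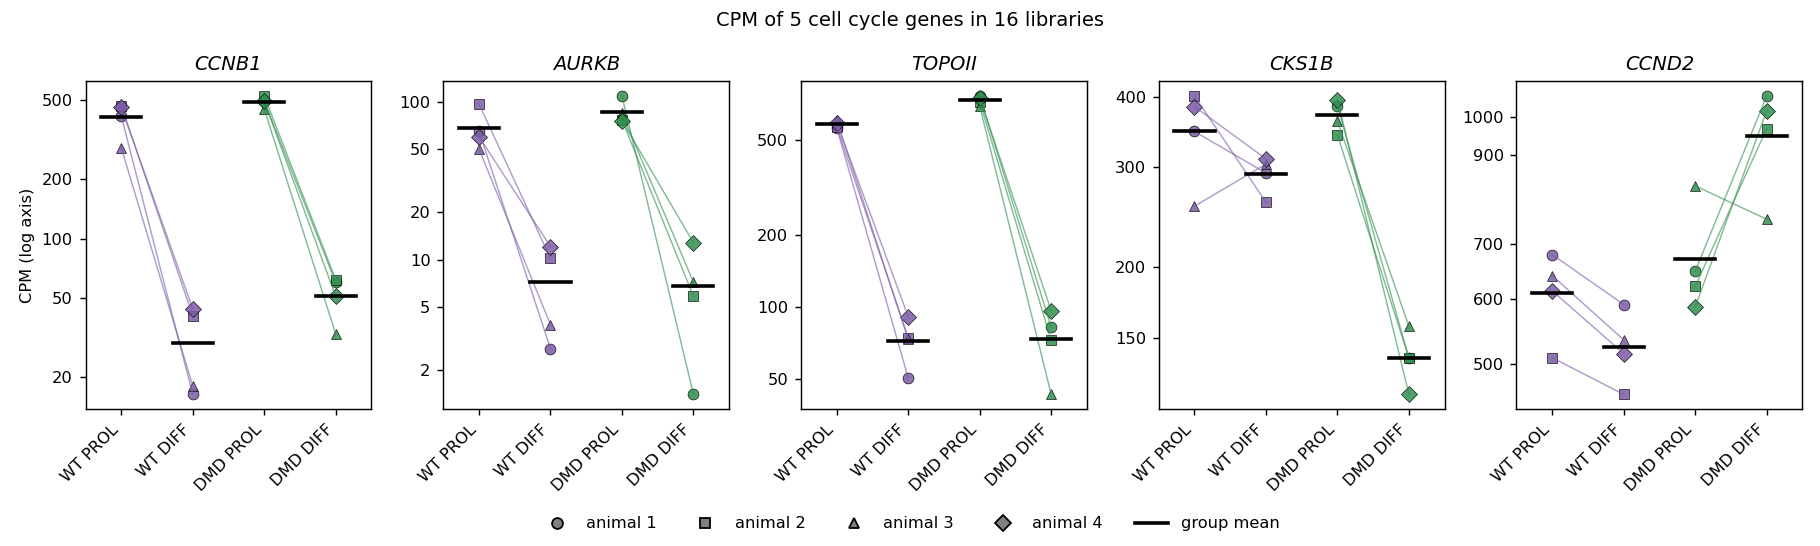
CPM of CCNB1, AURKB, TOPOII, CKS1B and CCND2 in the 16 libraries, with 1 panel a gene, the 4 groups on the x axis and CPM on a log y axis whose range differs between panels. Symbols mark the animals 1 to 4 of each genotype, thin lines join the PROL and DIFF culture of an animal, and black bars are group means. The first 3 genes drop steeply in all 8 animals. CKS1B drops in the 4 DMD animals and by less in WT animals 1, 2 and 4. CCND2 climbs in DMD animals 1, 2 and 4 and drops slightly in DMD animal 3 and the 4 WT animals.

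The question of the state comparison was how far each transcript falls once SCs are moved into differentiation medium. CCNB1 stood at 416, 469, 288 and 461 CPM in WT PROL replicates 1 to 4 and at 16.4, 40.9, 18.1 and 44.3 CPM in the WT DIFF cultures of the same animals. In DMD SCs it stood at 495, 525, 451 and 495 CPM in PROL and at 60.2, 62.2, 33.1 and 51.2 CPM in DIFF. No DIFF library reached a PROL library in either genotype. The group means were 409 ± 83.9 and 29.9 ± 14.7 CPM in WT (SD, n = 4) and 491 ± 30.7 and 51.7 ± 13.2 CPM in DMD. The log2 fold change was −3.78 ± 0.34 (SE) in WT, with an edgeR adjusted p of 2.6e-05, and −3.25 ± 0.15 in DMD, with an edgeR adjusted p of 1.4e-10. What remained in DIFF was 3.94% to 9.61% of the PROL level in the WT animals and 7.35% to 12.2% in the DMD animals. Within WT DIFF, replicates 2 and 4 held more CCNB1 than replicates 1 and 3, and in WT DIFF replicate 1 the duplicates held 20 and 4 counts, the widest disagreement of duplicates for this gene.

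AURKB was the least abundant of the 5 in reads, with 78 to 178 counts in the PROL libraries and 2 to 18 in the DIFF libraries. Its level was 65.2, 96.9, 50.3 and 60.2 CPM in WT PROL replicates 1 to 4 and 2.73, 10.2, 3.87 and 12.1 CPM in WT DIFF. In DMD SCs it was 109, 76.9, 84.5 and 76.1 CPM in PROL and 1.40, 5.86, 7.20 and 12.8 CPM in DIFF. Here too the PROL and DIFF libraries were fully separated in both genotypes, while the DIFF values of WT and DMD ran through each other. AURKB fell by 3.24 ± 0.38 on the log2 scale in WT (edgeR adjusted p = 8.8e-06) and fell by 3.67 ± 0.34 in DMD (edgeR adjusted p = 5.7e-07). DMD DIFF replicate 1 rested on 2 counts, for which the exact 95% counting interval ran from 0.170 to 5.06 CPM, or 0.154% to 4.71% of the PROL level of that animal. If the even values mean that each fragment was counted double, which was not tested, this is 1 fragment and the interval is 0.0354 to 7.80 CPM, or 0.0322% to 7.34%. In the other 7 animals the DIFF level was between 4.19% and 20.1% of the PROL level.

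TOPOII was the most even of the mitotic genes in PROL, at 564, 569, 606 and 591 CPM in WT replicates 1 to 4 and 766, 726, 695 and 753 CPM in DMD. In DIFF it was 50.6, 74.5, 73.5 and 91.4 CPM in WT and 82.5, 72.7, 43.2 and 96.7 CPM in DMD. All DIFF libraries lay far below all PROL libraries. TOPOII fell by 3.01 ± 0.14 on the log2 scale in WT (edgeR adjusted p = 4.2e-10) and fell by 3.32 ± 0.18 in DMD (edgeR adjusted p = 6.8e-08). The share left in DIFF was 8.97% to 15.5% in WT animals and 6.22% to 12.8% in DMD animals. DMD animal 3 had the lowest DIFF level of its group for CCNB1, TOPOII and CCND2.

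CKS1B was at 347, 401, 256 and 384 CPM in WT PROL replicates 1 to 4 and at 293, 260.2, 304 and 310.4 CPM in WT DIFF. These WT groups overlapped, and animal 3 went up while the other three went down. In DMD SCs CKS1B was at 385, 342, 362 and 395 CPM in PROL and at 138, 138, 157 and 119 CPM in DIFF, so that every DMD animal lost more than every WT animal. The DMD animals kept 30.2% to 43.4% of their PROL level, against 64.9% to 119% in the WT animals. The log2 fold change was −1.43 ± 0.11 in DMD (edgeR adjusted p = 1.4e-08) and −0.25 ± 0.13 in WT (edgeR adjusted p = 0.131, 95% interval −0.54 to 0.03), a WT value that misses the threshold and does not show an equal level. With library size alone as the scaling the WT value was −0.60 (edgeR adjusted p = 0.00220) and passed both thresholds, in a fit in which the median gene stood at −0.32.

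CCND2 was at 680.0, 509, 641 and 614 CPM in WT PROL replicates 1 to 4 and at 591, 459, 535 and 515 CPM in WT DIFF. All 4 WT animals were lower in DIFF, at 83.5% to 90.1% of PROL, but the groups overlapped. The log2 fold change in WT was −0.22 ± 0.10 (edgeR adjusted p = 0.0910, 95% interval −0.44 to 0.00). In DMD SCs CCND2 was at 649, 622, 825 and 587 CPM in PROL and at 1062, 969, 751 and 1019 CPM in DIFF. DMD animals 1, 2 and 4 were higher in DIFF, at 164%, 156% and 174% of PROL, while animal 3, the highest in PROL and the lowest in DIFF, was at 91.0%. The log2 fold change in DMD was 0.50 ± 0.12 (edgeR adjusted p = 0.00537), which passed the p threshold but not the fold threshold of 0.6 and so was not called. Without DMD replicate 3 it was 0.70 (edgeR adjusted p = 1.6e-05) and was called. In DMD DIFF replicate 4 the technical duplicates held 404 and 1028 CCND2 counts, out of totals of 522452 and 932072 counts.

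**Figure D2:**
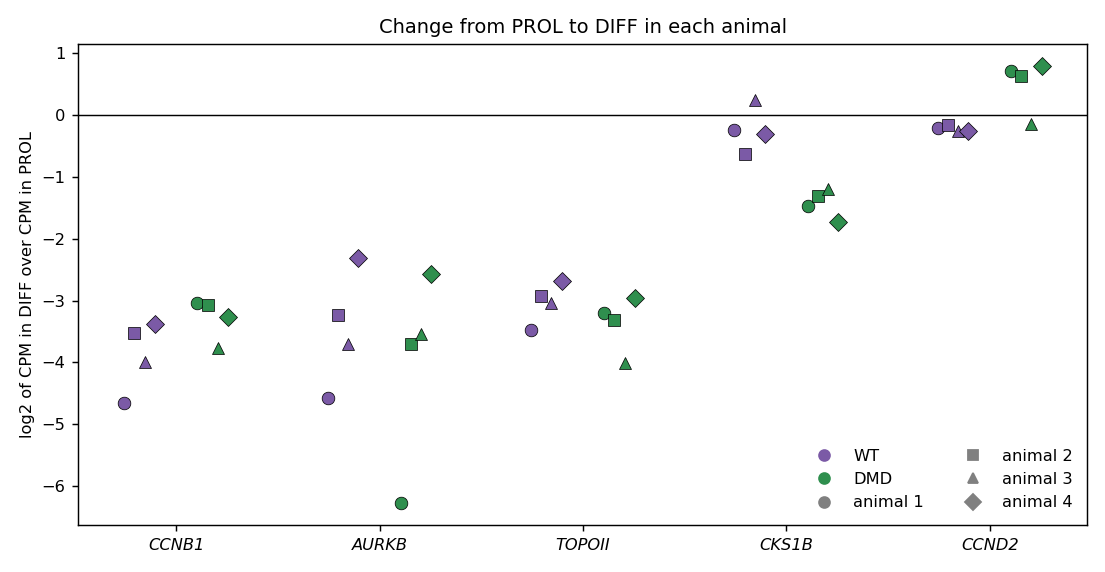
Log2 of the CPM in DIFF over the CPM in PROL for each of the 8 animals (y axis) and each of the 5 genes (x axis), WT in violet and DMD in green, with a symbol for each animal number. Points lie below −2 for CCNB1, AURKB and TOPOII in both genotypes, the genotypes separate for CKS1B, and CCND2 is above 0 in DMD animals 1, 2 and 4. The AURKB point of DMD animal 1 rests on 2 counts in DIFF.

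Called means here an edgeR adjusted p under 0.05 together with an absolute log2 fold change over 0.6. In WT, 3 of the 5 genes were called, all lower in DIFF, where 32.2% of the 1921 genes tested were called and 14.3% were called lower in DIFF. The same 3 genes had groups that did not overlap, which held for 43.4% of the genes tested. In DMD, 4 of the 5 were called, all lower in DIFF, where 28.4% of 1886 genes were called, 12.4% were called lower and 40.6% had groups that did not overlap, among them the same 4. Over all genes the WT calls were 343 higher and 275 lower, and with library size alone they were 194 higher and 563 lower. CCNB1, AURKB and TOPOII were called lower in DIFF in both genotypes under each of the 15 alternatives in WT and 16 in DMD, with log2 fold changes between −4.13 and −2.82 in WT and between −4.21 and −3.13 in DMD. Without the first duplicate of DMD PROL replicate 4 the DMD log2 fold changes of CCNB1, AURKB, TOPOII, CKS1B and CCND2 were −3.27, −3.71, −3.30, −1.47 and 0.50, and the interactions of CKS1B and CCND2 were −1.22 and 0.72, with the same calls.

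The remaining cell cycle genes were read from 8 lists ordered by role, of which 47 of the 214 listed symbols, the 5 genes above included, were among the counted genes. In WT, 34 other listed genes were tested, of which 19 were called lower in DIFF and 3 higher. In DMD, 33 others were tested, of which 19 were called lower and 0 higher, and DESeq2 gave 19 and 0 as well. At an unadjusted p under 0.05, 21 of the 33 were lower and 0 higher, counts given without a share over all genes. With the 5 genes included, the median log2 fold change over the tested listed genes was −1.30 in WT and −1.47 in DMD, beside 0.03 and 0.01 over all genes tested. The counts of called genes in the lists differed by role.

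Among the mitotic cyclins, CDK1 and its partners, 4 of 5 other tested genes were lower in each genotype. CCNA2, the cyclin of S phase and early mitosis, fell by 3.82 ± 0.24 on the log2 scale in WT (edgeR adjusted p = 5.5e-09) and fell by 3.37 ± 0.28 in DMD (edgeR adjusted p = 2.2e-06). CDK1, the kinase that cyclin B1 activates, had a log2 fold change of −2.47 ± 0.18 in WT and −3.39 ± 0.28 in DMD. MYBL2, a transcription factor of late cell cycle genes, was at −3.14 in WT and −2.31 in DMD.

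In the spindle, passenger and checkpoint list, all 3 tested genes beside AURKB were lower in DIFF in both genotypes. They were AURKA, the aurora kinase of the spindle poles (log2 fold change −3.29 in WT and −2.62 in DMD), STMN1, which destabilises microtubules (−2.10 and −1.47), and KIF22, a chromosome-binding kinesin (−2.26 and −2.48). CDC20, the activator of the anaphase promoting complex that marks cyclin B1 for destruction, had a log2 fold change of −3.70 ± 0.39 in WT and −3.48 ± 0.18 in DMD. In the list of that complex CDC23 was also called lower and ANAPC13 called higher in WT, at −1.34 and 0.65, and both lost the call with 1 duplicate of each sample used alone. ANAPC13 also lost it with library size alone, at 0.30 (edgeR adjusted p = 0.195), without WT replicate 2, at 0.51, and without WT replicate 4, at 0.58.

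In the chromosome structure list TOP2B, the topoisomerase II that non-dividing cells use, was called higher in WT DIFF with a log2 fold change of 0.71 ± 0.11 (edgeR adjusted p = 6.7e-05), opposite in sign to TOPOII. With library size alone it was 0.36 and was not called. MKI67, the gene of the proliferation antigen Ki-67, was looked up after its values had been seen and was not called in either state comparison. Its level was 425 ± 25.7 and 349 ± 35.9 CPM in WT PROL and DIFF and 407 ± 62.8 and 369 ± 38.2 CPM in DMD (SD, n = 4). Its log2 fold change was −0.29 ± 0.10 in WT (95% interval −0.49 to −0.08, edgeR adjusted p = 0.0227) and −0.15 ± 0.11 in DMD (95% interval −0.38 to 0.09, edgeR adjusted p = 0.321). With library size alone the WT value was −0.64 and was called.

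Of the 8 DNA replication genes tested, 7 were lower in DIFF in WT and 8 in DMD. PCNA, the sliding clamp of DNA polymerase, had a log2 fold change of −1.65 ± 0.17 in WT and −2.32 ± 0.14 in DMD. DNMT1, which copies DNA methylation after replication, was at −1.30 in WT and −2.07 in DMD on the same scale, and RFC3, a subunit of the clamp loader, was at −1.60 in WT. Among G1 regulators CCNE2, the cyclin of the step into S phase, was at −1.62 in WT and −2.03 in DMD, and MYC, a growth-induced transcription factor, was called at −0.67 and −0.65. MYC lost its call without WT replicate 2, at −0.56, or replicate 3, at −0.68, in WT, and without DMD replicate 4, at −0.49, in DMD.

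Of 3 tested genes in the list of inhibitors, CDKN3, a phosphatase of CDKs that is itself made in dividing cells, was lower in DIFF, with log2 fold changes of −2.06 in WT and −1.46 in DMD, and the other two were not called. CCNG1, a cyclin that p53 induces, was the only called gene of the 6 other cyclins and CDKs tested in WT, where it was higher in DIFF (log2 fold change 1.05 ± 0.09, edgeR adjusted p = 1.0e-07). With library size alone CCNG1 was called higher, and CCNC (−0.77) and CDK10 (−0.69) were called lower, 2 genes looked up after their values had been seen. In DMD 0 of 5 such genes were called by edgeR or by DESeq2. At an unadjusted p under 0.05 there was 1, a count given without a share over all genes.

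**Figure D3:**
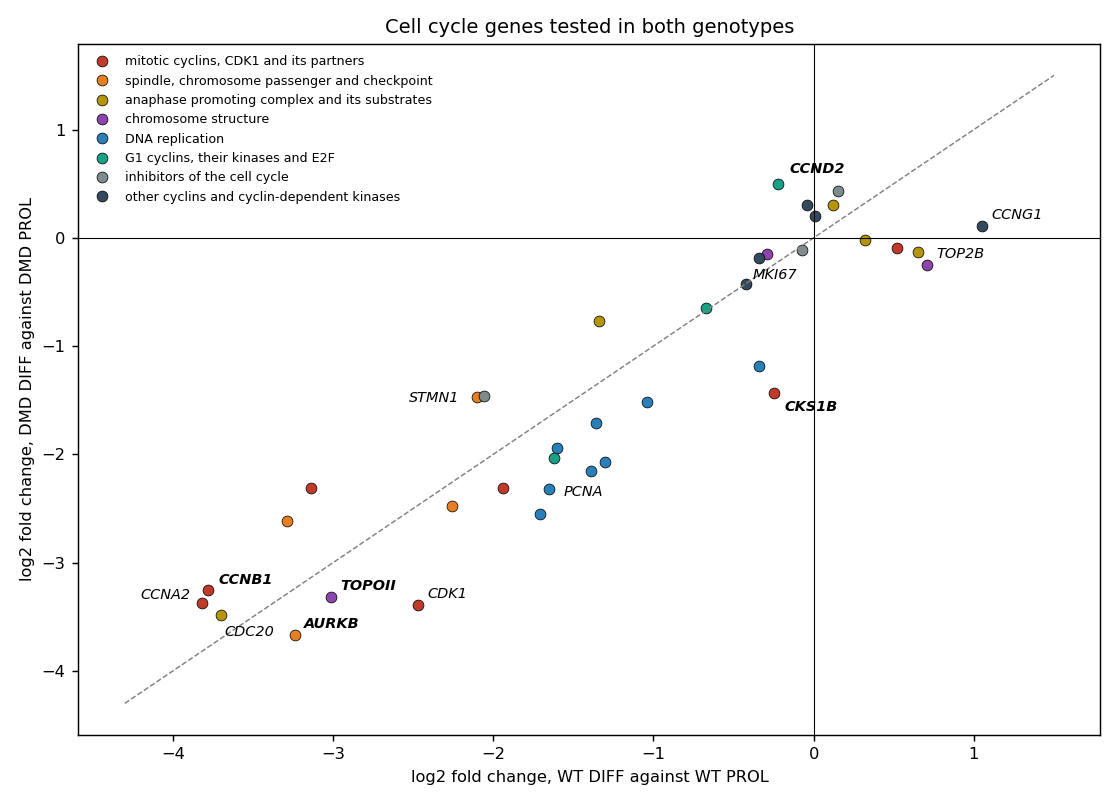
Log2 fold change of DIFF against PROL in WT (x axis) and in DMD (y axis) for the 38 listed cell cycle genes tested in both genotypes, coloured by list, with the 5 genes described here in bold and a dashed line of equal change. The called genes of the mitotic cyclin and replication lists lie in the lower left, ENSA of the mitotic cyclin list, which was not called, lies at 0.52 in WT and −0.09 in DMD, CKS1B lies below the line and CCND2 above it.

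The genotype comparison in PROL asked whether DMD PROL cultures differ from WT PROL cultures. TOPOII was higher in all 4 DMD PROL libraries (695 to 766 CPM) than in all 4 WT PROL libraries (564 to 606 CPM), with means of 735 ± 31.5 and 582 ± 19.8 CPM. The log2 fold change was 0.32 ± 0.08, or 1.25-fold, with an edgeR adjusted p of 0.00494 and a 95% interval of 0.16 to 0.48. It stayed under the fold threshold and was not called, and with library size alone it was 0.18 with an edgeR adjusted p of 0.196. Without the first duplicate of DMD PROL replicate 4 it was 0.29 with an edgeR adjusted p of 0.0120. Thus 0 of the 5 genes were called, by edgeR and by DESeq2, where 18.2% of the 1914 genes tested were called and 8.36% were called higher in DMD. TOPOII alone had an unadjusted p under 0.05, at 6.9e-04, and was the 1 gene of the 5 whose groups did not overlap, as did 29.8% of all genes tested.

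The other 4 genes overlapped between the genotypes in PROL. CCNB1 had a log2 fold change of 0.25 ± 0.13 (edgeR adjusted p = 0.187, 95% interval −0.04 to 0.54) and AURKB of 0.33 ± 0.21 (edgeR adjusted p = 0.262, 95% interval −0.11 to 0.78). CKS1B was at 0.08 ± 0.13 (95% interval −0.19 to 0.35) and CCND2 at 0.12 ± 0.11 (95% interval −0.12 to 0.36). An interval that includes 0 does not show equal levels, and for AURKB it reaches past the fold threshold.

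Of the 35 other listed genes tested in PROL, 4 were called higher in DMD and 0 lower by edgeR and by DESeq2. Over all 1914 genes tested 18.2% were called, and 8.36% were called higher in DMD. At an unadjusted p under 0.05, 11 of the 35 were higher and 0 lower. No share over all genes at that threshold is given, so these counts cannot be set against the genes at large. With library size alone 1 of the 35 was called higher. That scaling moved the median gene from 0.00 to −0.15, and the calls over all genes from 160 higher and 189 lower to 122 higher and 264 lower. STMN1 was at 362 ± 43.5 CPM in WT and 800.0 ± 44.9 CPM in DMD, a log2 fold change of 1.13 ± 0.10 (edgeR adjusted p = 6.5e-07), and it was called under each of the 20 alternatives. CCNA2 (0.66), PRIM2 (0.70), a subunit of DNA primase, and CCNE2 (0.61) lost the call under 3, 8 and 7 of the 20 alternatives. CCNA2 lost it without WT replicate 3, CCNE2 without WT replicate 1, 2 or 3, and PRIM2 without WT replicate 1 or 3 or DMD replicate 1, 2 or 4.

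In DIFF the genotypes differed in CKS1B and CCND2. CKS1B was 2.14-fold lower in DMD DIFF than in WT DIFF, with 119 to 157 CPM against 260.2 to 310.4 CPM, a log2 fold change of −1.10 ± 0.11 (edgeR adjusted p = 5.4e-07). CCND2 was 1.79-fold higher, with 751 to 1062 CPM against 459 to 591 CPM, a log2 fold change of 0.84 ± 0.11 (edgeR adjusted p = 1.4e-05). The libraries of the genotypes did not overlap for either gene. These were 2 of 5 genes called and 2 of 5 without overlap, where 33.6% of the 1916 genes tested were called, 16.1% were called higher in DMD and 45.1% had groups that did not overlap. Both calls held under each of the 19 alternatives, at −1.16 to −0.96 for CKS1B and 0.74 to 0.97 for CCND2. Among these alternatives the replicate block joins different animals and is no pairing.

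The 3 mitotic genes were not called between the genotypes in DIFF. CCNB1 had a log2 fold change of 0.77 ± 0.32 with an edgeR adjusted p of 0.0611 and a 95% interval of 0.09 to 1.46, and the groups overlapped. It was called at 0.96 without WT replicate 2, at 1.05 without WT replicate 4 and at 0.94 without DMD replicate 3. DESeq2 gave 0.80 and a call. AURKB, with 2 to 18 counts a library, was at −0.10 ± 0.59 (95% interval −1.36 to 1.15), and TOPOII was at 0.01 ± 0.23 (95% interval −0.49 to 0.50).

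Of the 32 other listed genes tested in DIFF, 4 were called higher in DMD and 3 lower, and with library size alone 4 higher and 1 lower. Over all 1916 genes tested 33.6% were called, and 16.1% were called higher in DMD. STMN1 was higher by a log2 fold change of 1.75 ± 0.21 (edgeR adjusted p = 1.7e-05) and CDKN3 by 0.95 ± 0.18 (edgeR adjusted p = 3.0e-04). TOP2B fell by 0.94 ± 0.13 on the log2 scale from WT to DMD (edgeR adjusted p = 1.2e-05), and these 3 were called under each of the 19 alternatives. CCNG1 was at −0.71 and lost its call with library size alone, at −0.57. CCNA2, MYBL2 and ANAPC13 were called at 1.10, 0.98 and −0.64 and lost the call without single libraries, CCNA2 without WT replicate 1, 2 or 4 or DMD replicate 1, 2 or 4, MYBL2 without WT replicate 3 or 4 or DMD replicate 1 or 4, and ANAPC13 without WT replicate 4 or DMD replicate 3. Over all genes the calls were 308 higher and 335 lower, and with library size alone 387 higher and 267 lower.

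The interaction asked whether the change from PROL to DIFF differed between the genotypes, and it used all 16 libraries. It was called for CKS1B, at −1.18 ± 0.17 (edgeR adjusted p = 1.5e-05, 95% interval −1.54 to −0.83), and for CCND2, at 0.71 ± 0.17 (edgeR adjusted p = 0.00263, 95% interval 0.36 to 1.06). These are 2 of the 5 genes, where 23.5% of the 2030 genes tested were called. Both calls held under each of the 20 alternatives, between −1.31 and −0.90 for CKS1B and between 0.60 and 0.99 for CCND2. For CCNB1, AURKB and TOPOII the interaction was 0.52, −0.44 and −0.32, with 95% intervals of −0.28 to 1.32, −1.67 to 0.79 and −0.82 to 0.18, and it was not called. The genotype and state comparisons share libraries with the interaction, so their values are not separate evidence.

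**Figure D4:**
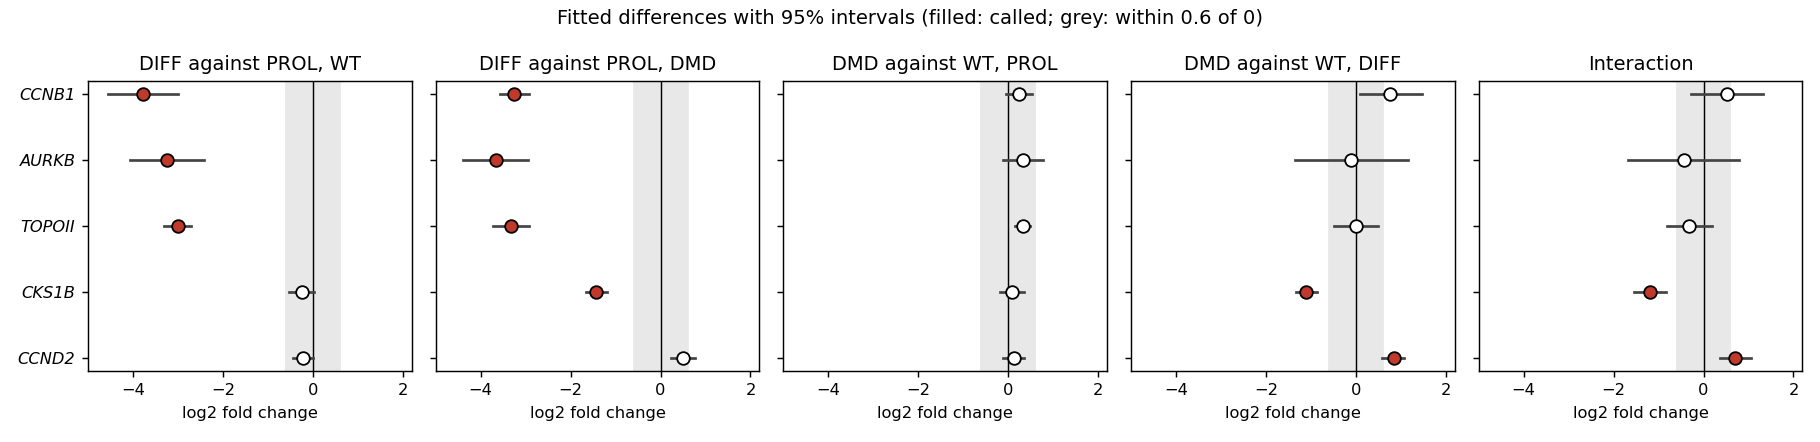
Fitted log2 fold changes of the 5 genes in the 4 comparisons and the interaction, with 95% intervals from the edgeR fits. Filled points were called and open points were not, and the grey band covers absolute values up to 0.6. The 3 mitotic genes are filled in both state panels, and CKS1B and CCND2 are filled on opposite sides of 0 in the DIFF genotype panel and in the interaction.

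Set in order, CCNB1, AURKB and TOPOII were highest in DMD PROL, followed by WT PROL, and both DIFF groups lay far below. The neighbours DMD PROL and WT PROL differed beyond the p threshold for TOPOII only, and the DIFF groups of these 3 genes were not called apart. For CKS1B the order was DMD PROL (371 ± 23.8 CPM), WT PROL (347 ± 64.7), WT DIFF (292 ± 22.4) and DMD DIFF (138 ± 15.3), in which only the last step was called. For CCND2 it was DMD DIFF (949.9 ± 138 CPM), DMD PROL (671 ± 106), WT PROL (611 ± 73.2) and WT DIFF (525 ± 54.5), and none of the neighbours in that order was called apart, while DMD DIFF and WT DIFF were.

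The likeness of patterns was measured as the root mean square difference of centred log2 CPM over the 16 libraries, among 2029 other genes. CCNB1 was closest to LOC100514810 (0.30), CDC20 (0.44) and CCNA2 (0.45), where the median gene was at 1.91. TOPOII was closest to LOC100514810 (0.32), PBK (0.34) and HMGB2 (0.36), and AURKB to TOPOII (0.60), ASF1B (0.60) and LOC100514810 (0.61). CKS1B was closest to PDIA4 (0.25), EMP3 (0.25) and DBF4 (0.30), where the median gene was at 0.74. CCND2 was closest to PSMA4 (0.17), UBE2L3 (0.19) and TMEM85 (0.22), where the median gene was at 0.58. The measure falls as a pattern becomes flatter, and the libraries share the 4 groups, so these distances describe these cultures only.

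Markers of the cells in culture moved with the same groups. WT libraries summed to between 233 and 344 CPM over 10 myotube genes while proliferating and to between 2732 and 4776 CPM after differentiation, and DMD libraries to between 4667 and 8598 CPM and between 16809 and 20629.8 CPM. Over 6 fibroblast genes the WT sums were 8263 to 10016 CPM before and 21154 to 24193 CPM after differentiation, and the DMD sums were 4121 to 4613 CPM and 9476 to 12779 CPM. The 4 pericyte and smooth muscle genes summed to 15802 to 20398 CPM in DMD DIFF and to 1501 to 3449.8 CPM in the other groups. The myotube and fibroblast sums were thus both higher in DIFF than in PROL, and the DMD sums were above WT for the former and below WT for the latter. For the myotube genes even DMD PROL (median 7637 CPM) lay above WT DIFF (median 3950.1 CPM), so the PROL groups differed in these markers. The fibroblast sum of DMD DIFF was mostly COL1A2, at 9114 ± 1144 CPM against 7849 ± 673 CPM in WT DIFF, a difference that was not called (log2 fold change 0.19). From PROL to DIFF in DMD, POSTN was called lower (−0.91) and LUM was not called (0.26).

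The 8 counted satellite cell and myoblast genes summed to 4561 to 8446 CPM in the first 3 groups and 10635 to 12664 CPM in DMD DIFF, most of it ITGB1 (7764 ± 672 CPM in DMD DIFF). In WT the muscle filament gene DES was called higher in DIFF (log2 fold change 1.91) while this sum was lower, and the myogenic factors MYF5, MYOD1 and MYOG were between 0 and 45.5 CPM in the group means. PAX7, the defining SC marker, was not among the genes analysed here, CXCR4 had no count in any group and MYF5 none in WT. The endothelial list summed to 107 to 133 CPM in WT PROL and 13.5 to 28.9 CPM in DMD PROL, and to 60.2 to 113 CPM and 27.4 to 49.0 CPM in the DIFF cultures of WT and DMD. Its genes ERG (−2.46 in PROL, −0.89 in DIFF) and PECAM1 (−3.37 in PROL, −2.01 in DIFF) were called lower in DMD than in WT, and the blood marker CD14 was called lower in DMD in PROL (−0.71) and in DIFF (−1.40). The blood list summed to 18.2 to 73.3 CPM and the adipocyte list to 2.19 to 24.8 CPM over all libraries, with VWF at 0 in both PROL groups and HBB, ADIPOQ and LPL at 0 in all groups. The part of cell makeup in the levels of the 5 genes was not tested.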

How the data were processed

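RNA of 16 SC cultures (25 ng each) was sequenced as 3′ mRNA libraries with unique molecular identifiers. The authors aligned reads with STAR 2.7.10b to susScr3, per the labels, and deposited raw counts per gene in 32 columns, 2 technical duplicates a sample. Identifiers were deduplicated by the authors with UMI-tools. The annotation and the strand setting are not given in the sources used here. STAR counts only reads that map to 1 place, which can lower genes with near-identical copies.

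Duplicates were added per sample. Chi-square over its degrees of freedom was 8.28 to 66.0 between replicates of a group and 2.65 to 104 with a median of 5.67 between duplicates, so no replicate was taken for a library deposited again. edgeR 4.0.16 (R 4.3.3) quasi-likelihood tests used filterByExpr (minimum count 10, total 15), TMM and Benjamini-Hochberg adjustment over all genes tested. The n is 4 animals a group, and between genotypes p-values measure the spread between animals. In the state comparisons and the interaction, the PROL and DIFF libraries of an animal were fitted as independent. There p-values measure the spread of libraries within groups, with the pairing left out except under the block. Each comparison was fitted on its own 8 libraries and the interaction on 16. A prior count of 2 was used in the log2 CPM of the pattern distances and of the pairing check. The log2 ratios of single animals were taken from CPM without a prior count. The alternatives were DESeq2 1.42.0, limma-voom (limma 3.58.1), other scalings and filters, single duplicates, halved counts, 1 joint fit, a replicate block and leaving out libraries. In the genotype comparisons the replicate block joins different animals of equal number and is no pairing.

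PROL and DIFF cultures with 1 number come from 1 animal. As a check, the paired libraries were centred on their groups, and the correlation of what was left was 0.0999 to 0.172 in the 8 animals over 2030 genes, and each of the 8 was closest to its own animal.

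The genes and lists were chosen with earlier results of these data known. Named beside the 5 genes are the 3 called genes with the smallest p of each list and comparison and the 3 nearest patterns of each gene. The values of 1 gene that this rule names are not reported here, and counts over lists include it. No coordinates or sequences are printed, since the reference tables used here are of another build and hold no sequence, and the planned motif search in promoters was not run. RefSeq tables gave names only. Leaving out the first duplicate of DMD PROL replicate 4 was an alternative chosen after seeing the data.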

Additional observations from a re-analysis of the deposited data

Results flagged for a closer look

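No library of any group of 4 stood far enough from the others in CPM of the 5 genes to pass Dixon's 95% criterion. The change from PROL to DIFF differed between DMD and WT, by the edgeR interaction test on 16 libraries, for CKS1B (−1.18 on the log2 scale) and CCND2 (0.71), and both calls held under each of the 20 alternatives. Among the other listed genes it differed for CDK1 (−0.92), ANAPC13 (−0.79), TOP2B (−0.97), DNMT1 (−0.77), PCNA (−0.68) and CCNG1 (−0.95). TOP2B and CCNG1 kept the call under each of the 20 alternatives. CDK1 lost it under 11, ANAPC13 under 8, PCNA under 7 and DNMT1 under 1, and with library size alone, which moved the median gene from −0.04 to 0.25, these 4 genes stood at −0.64, −0.49, −0.40 and −0.49 with no call. Over the 35 listed genes beside CKS1B, CCND2 and the 3 mitotic genes, 0 were called higher and 7 lower with TMM. Over all 2030 genes tested 23.5% were called with TMM, 215 higher and 262 lower. With DESeq2 size factors 1 of the 35 was called higher and 6 lower. Library size alone gave 3 higher, namely MYBL2 (1.10), STMN1 (0.89) and CDKN3 (0.87), and 2 lower. Over all genes that scaling gave 387 higher and 134 lower. With the animal as a block CDK1 was at −0.96 with an edgeR adjusted p of 0.0600. Single animals, left out with both their PROL and DIFF libraries, decided the call of CDK1 (WT replicate 1, 3 or 4, DMD replicate 1, 2 or 3), ANAPC13 (WT replicate 2 or 4, DMD replicate 1 or 4) and PCNA (WT replicate 3 or 4, DMD replicate 2 or 3). The values over all such omissions were −0.62 to −1.26 for CDK1, −0.62 to −0.92 for ANAPC13 and −0.47 to −0.83 for PCNA.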

How the results depend on the processing

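Over 85 results and 21 alternatives, 1470 values were computed, of which 1290 were log2 fold changes and the rest counts of called genes. Of the log2 fold changes 1188 kept direction and side of the threshold, 77 lost a call, 12 gained one and 13 changed sign. No call of the 5 genes was lost, CCNB1 in DIFF gained one under 9 of 19 alternatives, and no count of called genes moved by over 1.5 times (521 to 757, 452 to 579, 253 to 427, 523 to 716 and 373 to 521 genes in the 4 comparisons and the interaction). The sign changes were all of values that were not called. With library size alone CKS1B and CCND2 in PROL were at −0.07 and −0.02 and AURKB in DIFF at 0.02. TOPOII in DIFF was at −0.19 from first duplicates alone. Leaving out 1 animal moved the DIFF genotype values of AURKB over −0.58 to 0.29 and of TOPOII over −0.15 to 0.20, CKS1B in PROL over −0.05 to 0.17 and the AURKB interaction over −0.97 to 0.02. With the animal as a block CCNB1, AURKB and TOPOII were at −3.82, −3.27 and −3.02 in the WT state comparison, and the block changed no call of the 5 genes in the state comparisons or the interaction. Between genotypes equal replicate numbers are different animals, and a replicate block there put CCNB1 in DIFF at 0.83 with a call and TOPOII at −0.01. AURKB in DIFF had 2 to 18 counts a library. The cause of these shifts was not tested.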
